A study of Homo sapiens with 8 samples.

Results

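The genes described here are the translation factors that work outside the cap-binding eIF4F complex: the initiation factors of the small ribosomal subunit, the elongation factors, the termination and recycling factors, and the poly(A)-binding proteins with their partners. Members were picked by gene symbol and function, with earlier results of these data known. All 45 symbols matched an Ensembl gene of the deposited table, out of 58787 identifiers, and 44 of them had enough counts to be tested. RNA sequencing measured polyadenylated RNA of IMR32, a human neuroblastoma cell line with amplified MYCN whose genotype is recorded as WT. Per the labels, cells rested for 48 h and then received CR31B, a rocaglate inhibitor of the RNA helicase eIF4A, at its IC50 for 6 h (4 libraries), or the vehicle, 0.1% DMSO (4 libraries). The concentration behind the IC50 is not given in the labels. The series describes the 4 libraries of a group as biological replicates. Replicate 1 of each group was sequenced paired-end and replicates 2, 3 and 4 single-end. All libraries come from 1 cell line, so the values describe that line only.

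As background, translation starts when eIF2 carries the initiator tRNA to the small subunit, where eIF1, eIF1A, eIF3 and eIF5 form a scanning complex that finds the start codon. The complex eIF2B reloads eIF2 with GTP, eIF5B joins the large subunit, eEF1A and eEF2 drive elongation, eRF1 and eRF3 release the chain, and ABCE1 splits the ribosome for the next round. Several of these messengers begin with a 5′ terminal oligopyrimidine tract (5′ TOP), a signal that ties their translation to mTOR activity, as in ribosomal protein genes. CR31B blocks a helicase that prepares messengers for the scanning complex, and the libraries count messengers, not protein or ribosome occupancy.

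Library totals ran from 43687828 to 64715535 counts. All 13 adrenergic neuroblastoma markers were at 1 CPM (counts scaled by TMM to a common library size) or more in every library, and their summed level ran from 5728 to 7382 CPM with CR31B and from 5443 to 7173 CPM with DMSO. The summed level of 8 fibroblast and mesenchymal markers ran from 63.8 to 87.6 CPM with CR31B and from 65.7 to 73.0 CPM with DMSO, and 3 of them (COL1A1, PDGFRB and THY1) reached 1 CPM in every library. Markers of 2 other kinds of cell summed to 2.88 CPM or less (7 epithelial and endothelial markers) and 1.11 CPM or less (6 immune markers), with FAP, CD68, CD3E and KRT18 at 0 in all 8 libraries. Of the Schwann cell markers, SOX10 and CDH19 were also at 0 in all 8. In replicates 2 to 4, 6 of the 13 neuroblastoma markers were higher with CR31B and 4 lower (log2 -0.98 for DBH to 1.78 for GATA3), of the fibroblast, immune and endothelial markers PDGFRB was higher (0.38), and PTPRC (-0.87), CD14 (-1.28) and CDH5 (-0.76) were lower (edgeR). The part of these shifts in the results below was not tested. In bulk RNA, fewer cells of a type and less RNA per cell cannot be told apart.

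The 2 libraries of replicate 1 ran against their labels as the other libraries set them. Of 6882 genes that passed the test in replicates 2 to 4 and were also tested in all 8 libraries, 6806 had the opposite sign in replicate 1. All 23 translation factors that passed were among them. By the mean chi-square per gene between the counts of a pair of libraries, the library labelled CR31B replicate 1 lay at 8.60 to 15.4 from DMSO replicates 2 to 4 and at 86.1 to 129.9 from CR31B replicates 2 to 4. The distances of the library labelled DMSO replicate 1 were 7.70 to 19.3 from CR31B replicates 2 to 4 and 83.2 to 100.4 from DMSO replicates 2 to 4. The labels were kept as given, and whether those of the 2 libraries are exchanged was not tested. Results are given for replicates 2 to 4, with replicate 1 apart, and the fit to all 8 libraries is summarised in 1 place. Below, "rose" and "fell" are used only of genes with an adjusted p under 0.05 in replicates 2 to 4 (CR31B against DMSO), and differences of replicate 1 are values without a replicate check.

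In replicates 2 to 4, 23 of 44 tested factors passed (edgeR quasi-likelihood test, Benjamini-Hochberg over all genes), which is 52.3% of them beside 41.3% of the 16696 genes tested. There were 16 factors that rose, 36.4% beside 23.8% of all genes, and 7 that fell, 15.9% beside 17.6%. The factors that rose were EIF5B, EIF5, EIF1 and EIF1B, the 3 eIF2 subunits, ETF1, GSPT1, ABCE1 and EIF6, with EIF3A, EIF3B, EIF2B3, EEF1A2 and PABPC4. The factors that fell were the eIF3 subunits EIF3D, EIF3F, EIF3I and EIF3K, with PABPC1, EEF1B2 and MCTS1. The median over the 44 factors was 0.00486 on the log2 scale, beside -0.00698 over all genes tested and 22 factors lay above 0 and 22 below. The CR31B and DMSO libraries did not overlap in 30 factors, against 52.1% of all genes: in 18 factors with CR31B above (40.9%, beside 27.7% of all genes) and 12 with CR31B below (27.3%, beside 24.4%). With replicate number as a block, 18 factors rose and 12 fell, beside 51.1% of all genes called (28.1% higher and 23.1% lower). With upper quartile in place of TMM scaling 11 rose and 18 fell, beside 45% of all genes called. Among all genes called, the share of higher calls moved from 57.5% to 40% with upper quartile scaling, 43.1% with total counts, 48.2% with offsets for GC content and transcript length, and 46.1% with those offsets and the block. The calls of EIF5B, EIF5, EIF1, EIF2S1, EIF2S2, EIF2S3, ETF1, GSPT1, ABCE1 and EEF1A2 (higher) and of EIF3D, EIF3F, EIF3I and PABPC1 (lower) held in all 16 alternatives run on replicates 2 to 4.

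Across all 8 libraries as labelled, 0 of 44 factors passed (edgeR quasi-likelihood test, Benjamini-Hochberg), beside 0% of 16518 genes, and 0 factors had an unadjusted p under 0.05. DESeq2 and limma voom also called 0 factors. The log2 fold changes lay between -0.20 (EIF3I) and 0.65 (EIF5B), with adjusted p of at least 0.707. When the library labelled CR31B replicate 1 was left out the count was 24, beside 41.6% of all genes called. Without the library labelled DMSO replicate 1 the count was 23, beside 41.1% of all genes called.

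**Figure D1:**
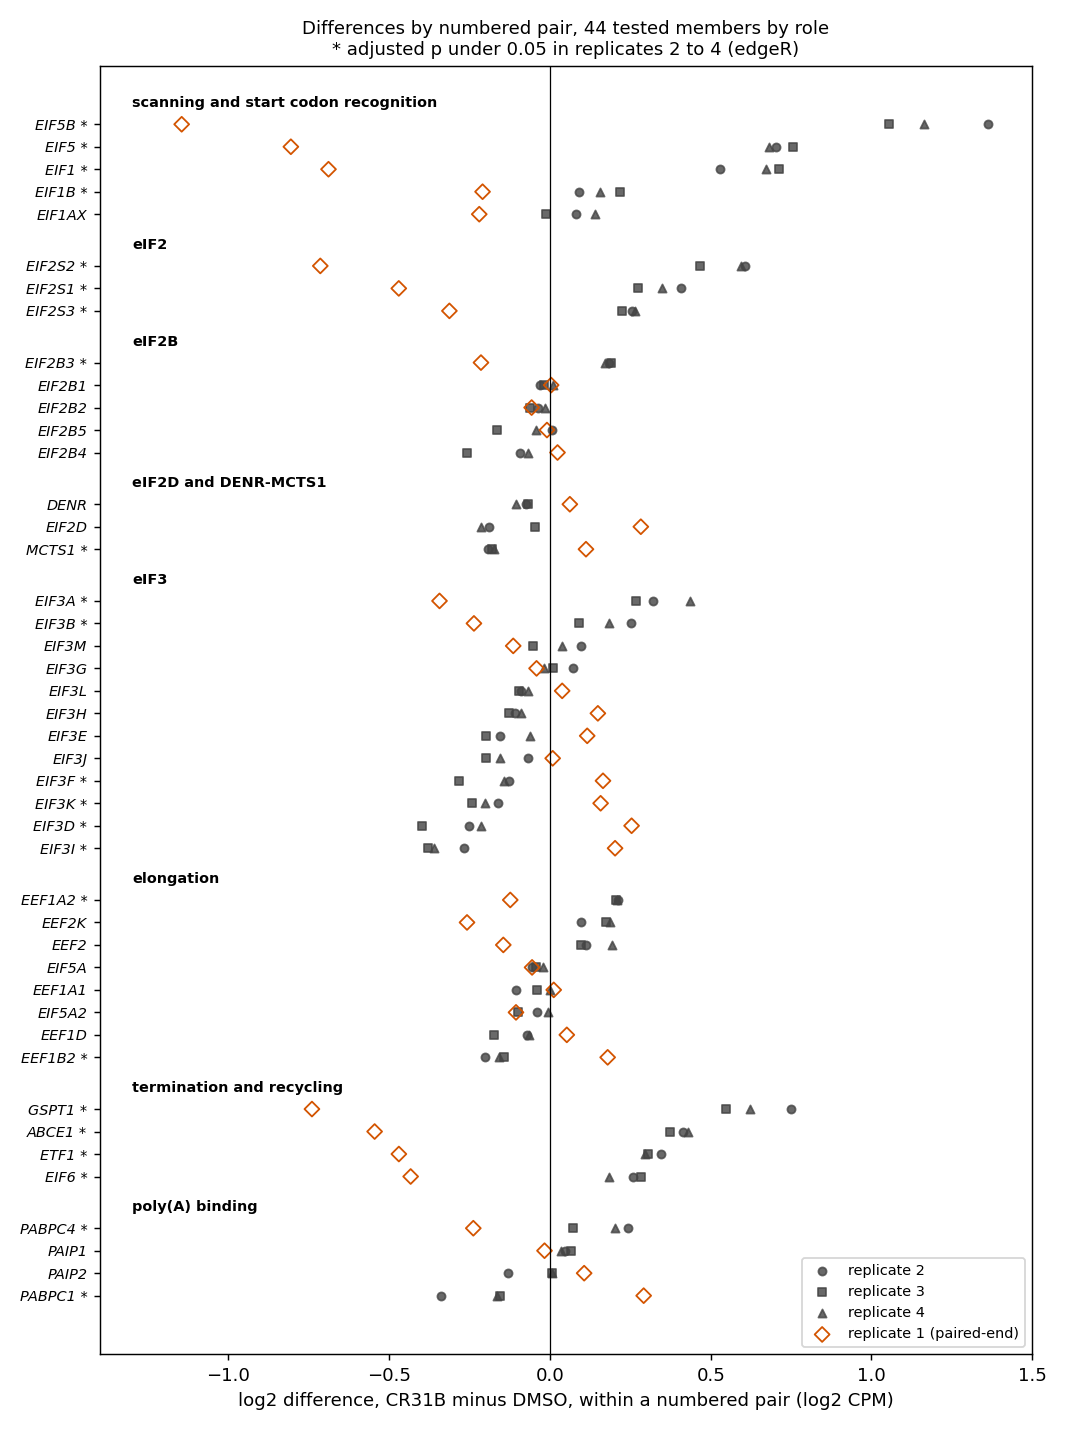
Log2 difference between CR31B and DMSO (log2 CPM, horizontal axis) within each numbered pair for the 44 tested factors (vertical axis), grouped by role; filled symbols are replicates 2, 3 and 4, open diamonds replicate 1, and an asterisk marks an adjusted p under 0.05 in replicates 2 to 4. EIF5B lies farthest to the right in replicates 2 to 4 and farthest to the left in replicate 1, where its difference was -1.15.

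Among the factors of scanning and start codon recognition, 4 of 5 rose (80%, beside 23.8% of all genes) and 0 fell, and their median log2 fold change was 0.64. EIF5B, the GTPase that joins the large ribosomal subunit at the start codon (ENSG00000158417, chromosome 2, 99337353 to 99401326, plus strand), had 297, 304 and 319 CPM in the CR31B libraries 2, 3 and 4 and 116, 146 and 143 CPM in the DMSO libraries of the same numbers. The groups did not overlap, and all 3 CR31B libraries stood above all 3 DMSO libraries, as for 27.7% of all genes. This was a 2.28-fold rise, a log2 fold change of 1.19 ± 0.0824 (SE, edgeR adjusted p 3.27e-06), and rank 188 of 16696 genes by size of rise. In replicate 1 the library labelled CR31B held 142 CPM and the library labelled DMSO 313 CPM, each near the values of the other label. In all 8 libraries the EIF5B value was 0.65 ± 0.374 (SE, edgeR adjusted p 0.707).

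EIF5, the GTPase-activating protein of eIF2 at the start codon (ENSG00000100664, chromosome 14, 103333544 to 103345025, plus strand), had 865, 836 and 879 CPM with CR31B and 531, 495 and 548 CPM with DMSO in replicates 2, 3 and 4. The log2 fold change was 0.71 ± 0.0553 (SE, edgeR adjusted p 6.18e-06), a 1.64-fold rise with no overlap between groups, as for 27.7% of all genes in this direction. EIF1, which keeps the scanning complex open until a start codon is found (ENSG00000173812, chromosome 17, 41688885 to 41692668, plus strand), had 707, 731 and 702 CPM with CR31B and 489.6, 447 and 439.9 CPM with DMSO, a log2 fold change of 0.64 ± 0.0562 (SE, edgeR adjusted p 1.33e-05). EIF1 and EIF5 act against each other in how strictly the start codon is chosen, and their messengers rose by similar factors of 1.56 and 1.64. In replicate 1, EIF5 had 511 CPM in the library labelled CR31B and 894 CPM in the library labelled DMSO, and EIF1 had 460.1 CPM and 742 CPM in the same order.

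EIF1B, the close paralog of EIF1, rose with 99.3, 97.8 and 95.3 CPM against 93.3, 84.0 and 85.5 CPM and a log2 fold change of 0.16 ± 0.0539 (SE, edgeR adjusted p 0.0398). That call was lost under 11 of 16 alternatives, among them upper quartile scaling (0.06, adjusted p 0.380) and the fits without CR31B replicate 2, 3 or 4 or DMSO replicate 3 or 4 in turn (adjusted p 0.0553 to 0.161, edgeR). In replicate 1 EIF1B stood at 85.8 and 99.2 CPM in the libraries labelled CR31B and DMSO. Whether the 2 paralogs differ in their response was not tested. EIF1AX, which binds the same complex beside eIF1, had a log2 fold change of 0.07 ± 0.0542 (SE, edgeR adjusted p 0.319), and its groups overlapped. It was -0.07, adjusted p 0.379 with offsets for GC content and transcript length, and -0.22 in replicate 1.

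**Figure D2:**
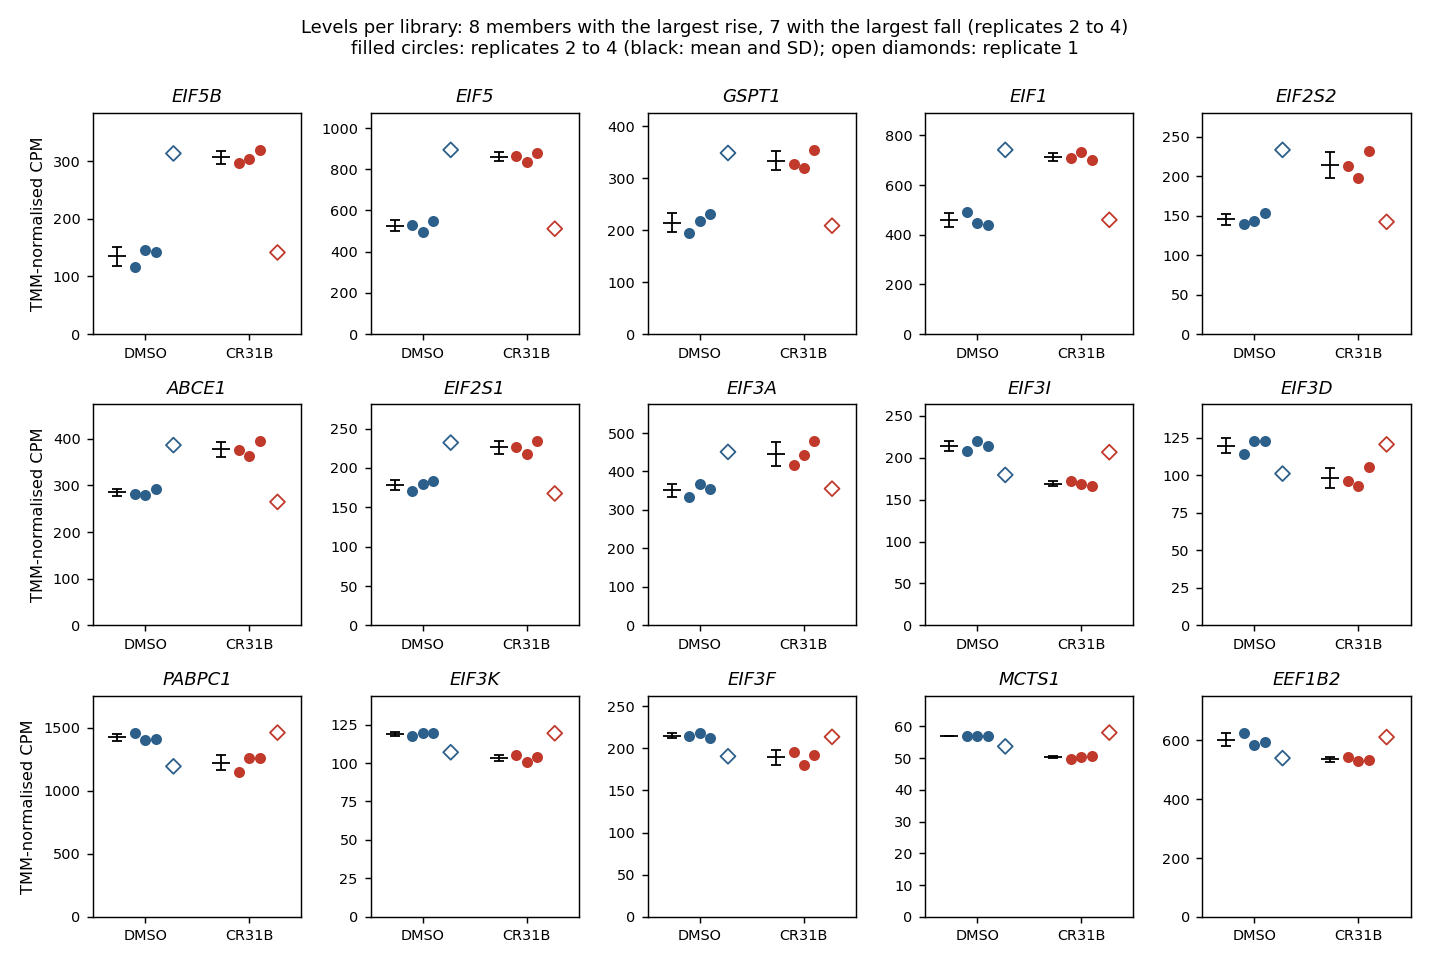
TMM-normalised CPM (vertical axis, from 0) in DMSO and CR31B libraries for the 8 factors with the largest rise and the 7 that fell; filled circles are replicates 2 to 4, black bars their mean and SD (n = 3), open diamonds replicate 1. In 14 of 15 panels both open diamonds lie on the other label's side of the midpoint, as for EIF5B with 313 CPM in DMSO replicate 1, and MCTS1 is the exception.

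All 3 subunits of eIF2 rose, beside 23.8% of all genes, with a median log2 fold change of 0.34. EIF2S2, the beta subunit that binds eIF5 (ENSG00000125977, chromosome 20, 34088298 to 34112332, minus strand), had 213, 198 and 232 CPM with CR31B and 140.0, 143 and 153 CPM with DMSO in replicates 2, 3 and 4. Its log2 fold change was 0.56 ± 0.0648 (SE, edgeR adjusted p 7.84e-05). EIF2S1, the alpha subunit that stress kinases phosphorylate (ENSG00000134001, chromosome 14, 67359997 to 67386516, plus strand), had 227, 218 and 234 CPM against 171, 179.8 and 184 CPM, a log2 fold change of 0.34 ± 0.0514 (SE, edgeR adjusted p 0.000418). EIF2S3, the gamma subunit that holds GTP and the initiator tRNA, had 227, 238 and 237 CPM against 190.2, 204 and 197 CPM and a log2 fold change of 0.25 ± 0.0492 (SE, edgeR adjusted p 0.00238). None of the 3 subunits had overlapping groups in these replicates, as for 27.7% of all genes in this direction. In replicate 1 the libraries labelled CR31B and DMSO held 142 and 233 CPM of EIF2S2, 168 and 232 CPM of EIF2S1 and 193 and 239.5 CPM of EIF2S3, the opposite order.

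Of the 5 subunit genes of the exchange factor eIF2B, 1 rose (20%, beside 23.8% of all genes) and 0 fell, and the median was -0.04. EIF2B3, a subunit of the catalytic part, had 54.2, 57.4 and 56.6 CPM with CR31B and 47.7, 50.3 and 50.3 CPM with DMSO, a log2 fold change of 0.18 ± 0.0517 (SE, edgeR adjusted p 0.0162). Its call was lost without CR31B replicate 4 (adjusted p 0.0544), without DMSO replicate 2 (0.0681) and under upper quartile and total count scaling (0.09, adjusted p 0.207, and 0.11, adjusted p 0.142, edgeR). In replicate 1 the libraries labelled CR31B and DMSO held 50.5 and 58.6 CPM. EIF2B1, EIF2B2, EIF2B4 and EIF2B5 had log2 fold changes of -0.01, -0.04, -0.13 and -0.07 with overlapping groups. With the replicate block EIF2B4 passed, lower, with an adjusted p of 0.0463 (edgeR). It passed as lower also under upper quartile (-0.23, adjusted p 0.0224) and total count scaling (-0.21, adjusted p 0.0295, edgeR). Upper quartile scaling gave 0 higher and 2 lower (EIF2B4 and EIF2B5), beside 45% of all genes called, 40% of those calls higher. The block with GC and length offsets gave 1 higher and 3 lower (EIF2B2, EIF2B4 and EIF2B5), beside 51%, 46.1% of those calls higher. Whether the eIF2B genes differ from the eIF2 genes was not tested.

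A separate route places or removes tRNA on the small subunit through eIF2D or the pair DENR and MCTS1. Here 0 of 3 genes rose and 1 fell (33.3%, beside 17.6% of all genes). MCTS1 (ENSG00000232119, chromosome X, 120594010 to 120621074, plus strand) had 49.8, 50.4 and 50.6 CPM with CR31B and 57.0, 57.1 and 57.1 CPM with DMSO. The SD within each group was 0.372 and 0.0578 CPM (n = 3). Both lie below the counting error at this level, so they understate the spread. The log2 fold change was -0.18 ± 0.0468 (SE, edgeR adjusted p 0.0104). With offsets for GC content and transcript length the MCTS1 value was -0.09, adjusted p 0.241 (edgeR). In replicate 1 it stood at 58.0 and 53.7 CPM in the libraries labelled CR31B and DMSO. Its partner DENR had 239.6, 229 and 238 CPM against 252, 240.0 and 256 CPM, a log2 fold change of -0.08 ± 0.0491 (SE, edgeR adjusted p 0.213), and passed as lower under upper quartile scaling (-0.18, adjusted p 0.00599). EIF2D had -0.14 with an adjusted p of 0.225, or 0.0343 with the replicate block (edgeR). EIF2D passed as lower also with the offsets (-0.29, adjusted p 0.0120) and without CR31B replicate 3 (-0.25, adjusted p 0.0109). Replicate 1 differed by 0.06 for DENR and 0.28 for EIF2D.

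The scaffold eIF3 holds the messenger and the scanning factors on the small subunit. Of the 12 subunit genes in the set 2 rose (16.7%, beside 23.8% of all genes) and 4 fell (33.3%, beside 17.6%). A further 6 did not pass, and the median log2 fold change was -0.12. In either direction 50% were called, beside 41.3% of all genes. A further subunit, EIF3C, is outside the set and has a near-identical copy, so its value is uncertain, -0.25 ± 0.102 (SE, edgeR adjusted p 0.0739). With upper quartile scaling 1 rose and 8 fell, beside 45% of all genes called, 40% of those calls higher. With the replicate block 2 rose and 7 fell, beside 28.1% of all genes higher and 23.1% lower. With offsets for GC content and length 0 rose and 4 fell, beside 38.9% of all genes called, 48.2% of those calls higher. EIF3A, the largest subunit and the core of the complex (ENSG00000107581, chromosome 10, 119033670 to 119080823, minus strand), had 417, 443 and 479 CPM with CR31B and 334, 368 and 354 CPM with DMSO, a log2 fold change of 0.34 ± 0.0630 (SE, edgeR adjusted p 0.00150). With those offsets the EIF3A value was 0.16, adjusted p 0.0758 (edgeR), and in replicate 1 its levels were 355 and 451 CPM in the libraries labelled CR31B and DMSO. EIF3B, which binds EIF3A, had 369, 330.2 and 379.9 CPM against 310.4, 310.2 and 334 CPM with overlapping groups and a log2 fold change of 0.18 ± 0.0630 (SE, edgeR adjusted p 0.0434). The EIF3B call was lost without CR31B replicate 2 or 4 or DMSO replicate 2 or 3 (adjusted p 0.107 to 0.155), with GC and length offsets and under 4 scaling and filter settings, of which upper quartile scaling gave 0.08, adjusted p 0.227 (edgeR). Its difference in replicate 1 was -0.24.

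Of the eIF3 subunits that fell, EIF3I, a member of the module that also holds EIF3B and EIF3G (ENSG00000084623, chromosome 1, 32221928 to 32231604, plus strand), changed most. It had 172, 169 and 166 CPM with CR31B and 207, 219 and 213 CPM with DMSO, with a log2 fold change of -0.33 ± 0.0472 (SE, edgeR adjusted p 0.000294). EIF3D, the subunit that can bind the cap of selected messengers (ENSG00000100353, chromosome 22, 36510850 to 36529436, minus strand), had 96.1, 93.2 and 106 CPM against 114, 123 and 123 CPM and a log2 fold change of -0.28 ± 0.0597 (SE, edgeR adjusted p 0.00335). EIF3K (ENSG00000178982, chromosome 19, 38619082 to 38636955, plus strand) had 105, 101 and 104 CPM against 117, 119 and 119.8 CPM and -0.20 ± 0.0453 (SE, edgeR adjusted p 0.00503), or -0.09, adjusted p 0.245 with GC and length offsets (edgeR). EIF3F (ENSG00000175390, chromosome 11, 7970251 to 8001862, plus strand) had 196, 179.7 and 192 CPM against 214, 219 and 213 CPM and -0.18 ± 0.0504 (SE, edgeR adjusted p 0.0145), or -0.45, adjusted p 0.000244 with GC and length offsets (edgeR). In all 4 the groups did not overlap, and the same held for 24.4% of all genes in this direction. In replicate 1 the libraries labelled CR31B and DMSO held 206 and 179 CPM of EIF3I, 121 and 101 CPM of EIF3D, 119 and 107 CPM of EIF3K and 214 and 191 CPM of EIF3F, so the first was higher each time. In the module of EIF3B, EIF3G and EIF3I, the log2 fold changes were 0.18, 0.02 and -0.33.

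The 6 subunits that did not pass had log2 fold changes from -0.14 (EIF3J) and -0.14 (EIF3E) through -0.11 (EIF3H), -0.08 (EIF3L) and 0.02 (EIF3G) to 0.03 (EIF3M). With the replicate block EIF3J, EIF3E and EIF3H passed, all lower, with adjusted p of 0.0140, 0.0152 and 0.0305 (edgeR). With GC and length offsets EIF3H passed at -0.23, adjusted p 0.00534, and EIF3M turned to -0.16, adjusted p 0.0631, or -0.16, adjusted p 0.0105 with the block added. Upper quartile scaling called EIF3J, EIF3E, EIF3H and EIF3L lower, with log2 values of -0.23, -0.23, -0.20 and -0.18. The gene EIF3L shares 41.1% of its exonic bases with AL022311.1 on the same strand, which held 302 counts over the 8 libraries beside 84371 for EIF3L.

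Of 8 elongation factors tested, 1 rose and 1 fell (12.5% each, beside 23.8% and 17.6% of all genes), with a median of -0.04. With upper quartile scaling 1 rose and 4 fell, beside 45% of all genes called, 40% of those calls higher. EEF1A1, which brings aminoacyl-tRNA to the ribosome (ENSG00000156508, chromosome 6, 73515750 to 73523797, minus strand), had 3936, 3928 and 4102 CPM with CR31B and 4232, 4036 and 4102 CPM with DMSO in replicates 2, 3 and 4, and 4095 and 4062 CPM in the libraries labelled CR31B and DMSO of replicate 1. The log2 fold change was -0.05 ± 0.0557 (SE, edgeR adjusted p 0.542), within the spread between replicates, although it passed under upper quartile scaling (-0.14, adjusted p 0.0250), total counts (-0.13, adjusted p 0.0391) and the block with GC and length offsets (-0.14, adjusted p 0.00518). EEF1A2, its neuronal and muscle paralog (ENSG00000101210, chromosome 20, 63488012 to 63499322, minus strand), rose from 298, 284 and 306 CPM with DMSO to 345, 328 and 353 CPM with CR31B, a log2 fold change of 0.21 ± 0.0523 (SE, edgeR adjusted p 0.00834). Its replicate 1 levels were 373 and 406 CPM in the libraries labelled CR31B and DMSO, and the first of these is also above all DMSO libraries of replicates 2 to 4. Whether the response of EEF1A1 differs from that of EEF1A2 was not tested.

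EEF1B2, a subunit of the exchange factor that reloads eEF1A (ENSG00000114942, chromosome 2, 206159585 to 206162928, plus strand), had 545, 531 and 532 CPM with CR31B and 626, 586 and 593 CPM with DMSO, a log2 fold change of -0.17 ± 0.0499 (SE, edgeR adjusted p 0.0220). That call was lost without CR31B replicate 4, DMSO replicate 2 or DMSO replicate 4 (adjusted p 0.0625 to 0.0825), and GC and length offsets gave -0.04, adjusted p 0.628 (edgeR). In replicate 1 EEF1B2 stood at 611 and 539.6 CPM in the libraries labelled CR31B and DMSO. EEF1D, of the same exchange complex, had -0.10 ± 0.0551 (SE, edgeR adjusted p 0.173). EEF1G, the third subunit, was listed at 0 in all 8 libraries, which allows up to 3 counts or 0.0464 to 0.0687 CPM per library, a limit that covers counting error only. Of its exonic bases 99.9% lie in exons of AP002990.1 on the same strand, which held 24 counts over the 8 libraries. How the counting treated such shared exons is not given in the sources used here, and the 0 is not read as absence of the messenger.

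EEF2, the translocase, had 1744, 1724 and 1841 CPM with CR31B and 1612, 1612 and 1610.2 CPM with DMSO, groups that did not overlap, as for 27.7% of all genes in this direction. It had a log2 fold change of 0.14 ± 0.0525 (SE, edgeR adjusted p 0.0599), or an adjusted p of 0.00995 with the replicate block (edgeR). Its inhibitory kinase EEF2K had 34.7, 38.5 and 37.6 CPM against 32.4, 34.2 and 33.0 CPM and 0.16 ± 0.0603 (SE, edgeR adjusted p 0.0619), or 0.0205 with the block (edgeR). EEF2K turned to -0.03, adjusted p 0.703 with GC and length offsets and passed as higher without CR31B replicate 2 (0.20, adjusted p 0.0256). The differences in replicate 1 were -0.15 for EEF2 and -0.26 for EEF2K. EIF5A, which helps the ribosome through proline-rich stretches and carries the hypusine residue (ENSG00000132507, chromosome 17, 7306999 to 7312463, plus strand), had 784, 761 and 792 CPM against 815, 784 and 804 CPM, and its paralog EIF5A2 (ENSG00000163577, chromosome 3, 170888415 to 170908693, minus strand) 23.6, 23.9 and 25.9 CPM against 24.3, 25.6 and 26.1 CPM. Their log2 fold changes were -0.04 ± 0.0488 (SE, edgeR adjusted p 0.565) and -0.05 ± 0.0651 (SE, edgeR adjusted p 0.600). EIF5A was 0.06, adjusted p 0.521 with GC and length offsets and passed as lower under upper quartile (-0.13, adjusted p 0.0200) and total count scaling (-0.12, adjusted p 0.0344), while EIF5A2 passed as lower with those offsets (-0.21, adjusted p 0.0238, edgeR). In replicate 1 EIF5A stood at 784 and 815 CPM and EIF5A2 at 25.1 and 27.0 CPM in the libraries labelled CR31B and DMSO.

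All 4 factors of termination, recycling and subunit release rose, beside 23.8% of all genes, with a median of 0.36. GSPT1 encodes eRF3, the GTPase partner of the release factor (ENSG00000103342, chromosome 16, 11868128 to 11916082, minus strand). It had 328, 319.6 and 355 CPM with CR31B and 195, 218 and 230.5 CPM with DMSO, a 1.56-fold rise and a log2 fold change of 0.64 ± 0.0687 (SE, edgeR adjusted p 4.71e-05). ETF1, which encodes eRF1 and reads the stop codon, had 400.2, 372 and 399 CPM against 315, 301 and 325 CPM and 0.32 ± 0.0536 (SE, edgeR adjusted p 0.000952). ABCE1, the ATPase that splits ribosomes after termination (ENSG00000164163, chromosome 4, 145097932 to 145129179, plus strand), had 375, 364 and 395 CPM against 281, 280.5 and 293 CPM and 0.41 ± 0.0512 (SE, edgeR adjusted p 0.000131). The groups of these 3 genes did not overlap, as for 27.7% of all genes in this direction.

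EIF6, which keeps the large subunit from joining too early, had 25.0, 24.3 and 25.1 CPM with CR31B and 20.9, 19.9 and 22.1 CPM with DMSO, a log2 fold change of 0.24 ± 0.0646 (SE, edgeR adjusted p 0.0120). Its call was lost without DMSO replicate 3 (adjusted p 0.0677) and under upper quartile (0.0796) and total count scaling (0.0554, edgeR). In replicate 1 the libraries labelled CR31B and DMSO held 209 and 349 CPM of GSPT1, 265 and 386 CPM of ABCE1, 287 and 397 CPM of ETF1 and 18.8 and 25.4 CPM of EIF6, each lower under the CR31B label.

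The 2 poly(A)-binding proteins moved in opposite directions. PABPC1 (ENSG00000070756), the main cytoplasmic poly(A)-binding protein and a 5′ TOP messenger, fell from 1457, 1403 and 1414 CPM with DMSO to 1153, 1259 and 1261 CPM with CR31B, a log2 fold change of -0.22 ± 0.0560 (SE, edgeR adjusted p 0.0104). PABPC4 (ENSG00000090621, chromosome 1, 39560816 to 39576790, minus strand), a paralog, had 272, 265 and 288 CPM with CR31B and 230.1, 252 and 250.1 CPM without it, for a log2 value of 0.17 ± 0.0560 (SE, edgeR adjusted p 0.0302). The PABPC4 call was lost without CR31B replicate 2 or 4 or DMSO replicate 2 (adjusted p 0.0501 to 0.117), with GC and length offsets (0.13, adjusted p 0.147), and under upper quartile, total count and 1 CPM filter settings (edgeR). In replicate 1 the libraries labelled CR31B and DMSO held 1463 and 1195 CPM of PABPC1 and 241 and 285 CPM of PABPC4. The partner proteins PAIP1 and PAIP2, which promote and restrain PABP, had 0.05 and -0.04 and did not pass.

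Start-site sequences are shown because 5′ TOP messengers form a known class within the set. They are 30 bases each, from 10 bases before the RefSeq start (GRCh38.p14) to 20 bases from it, 5′ to 3′, and capitals mark a C at the start itself followed by at least 4 bases that are each C or T, to the end of that run. The first 7 carry such a run. The last 5, from the 8 factors with the largest rise, do not. The sequences shown are not all of either kind. EIF2D and EIF3M also carry a run and did not pass, and EIF3I and MCTS1 carry none and fell.
EEF1A1 (chr6:73521013-73521042, minus strand): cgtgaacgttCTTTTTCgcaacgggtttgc
EEF2 (chr19:3985444-3985473, minus strand): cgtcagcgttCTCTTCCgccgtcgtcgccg
EEF1B2 (chr2:206159885-206159914, plus strand): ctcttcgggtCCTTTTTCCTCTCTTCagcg
EIF3D (chr22:36529147-36529176, minus strand): cgcatgtttcCTCTTTTCCTggtttctcaa
EIF3F (chr11:7987327-7987356, plus strand): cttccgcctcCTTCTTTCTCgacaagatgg
EIF3K (chr19:38619178-38619207, plus strand): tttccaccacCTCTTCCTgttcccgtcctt
EIF2S3 (chrX:24054946-24054975, plus strand): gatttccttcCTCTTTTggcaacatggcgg
EIF5B (chr2:99337379-99337408, plus strand): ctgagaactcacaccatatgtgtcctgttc
EIF1 (chr17:41688875-41688904, plus strand): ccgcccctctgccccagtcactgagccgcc
EIF2S1 (chr14:67360318-67360347, plus strand): gaggttccgcatgcgcggtggagtgagcga
ABCE1 (chr4:145098301-145098330, plus strand): gcggctgggcaccgccattttggccggtgg
GSPT1 (chr16:11916635-11916664, minus strand): tttatgagccacactgcagttttaagccgg
The run in EEF1B2 is 16 bases long, the longest of these, and the run in EEF1A1 is 7 bases long. EEF1B2 has a further RefSeq start and GSPT1 too, and neither of those carries a run. Of the first 7 genes EIF3D, EIF3F, EIF3K and EEF1B2 fell, EEF1A1 and EEF2 did not pass, and EIF2S3 rose.

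Of 35 factors with a start in the RefSeq table, 9 had such a run at an annotated start (25.7%), beside 5.14% of 27305 genes and 74.6% of 63 ribosomal protein genes in that table. The search read the transcribed strand at the start base only. Of these 9 factors 1 rose, 4 fell and 4 did not pass, with a median log2 fold change of -0.14. Of 25 tested factors without a run 11 rose, 2 fell and 12 did not pass, with a median of 0.07. Among all genes tested 23.8% rose and 17.6% fell. The members known as 5′ TOP messengers from the literature (EEF1A1, EEF1B2, EEF1D, EEF2, EIF3E, EIF3F, EIF3H and PABPC1, besides EEF1G) held 0 that rose and 3 that fell (37.5%, beside 17.6% of all genes), at a median of -0.12. With the replicate block 1 rose and 5 fell (62.5%, beside 23.1% of all genes). With upper quartile and with total count scaling 0 rose and 7 fell, beside 45% and 44.2% of all genes called. Of those calls among all genes 40% and 43.1% were higher. With GC and length offsets 0 rose and 3 fell, beside 38.9% of all genes called. RLE scaling, DESeq2 and no filter each gave 0 higher and 4 lower, beside 41.4%, 40.2% and 24.8% of all genes called. The 1 CPM filter gave 0 higher and 6 lower, beside 52.7%. Leaving out 1 library gave 0 or 1 higher and 2 or 3 lower, beside 32.7% to 39.8%. Among the 36 other tested factors 16 rose (44.4%, beside 23.8% of all genes) and 4 fell (11.1%, beside 17.6%), at a median of 0.06. Among 79 cytosolic ribosomal protein genes 0 rose and 49 fell (62%, beside 17.6% of all genes), with a median of -0.19. The alternatives other than left-out libraries gave 0 higher and between 18 (GC and length offsets) and 70 (upper quartile or total count scaling) lower. In these 3 settings 38.9%, 45% and 44.2% of all genes were called, and 48.2%, 40% and 43.1% of those calls were higher. Leaving out 1 library gave 25 (DMSO replicate 4) to 62 (DMSO replicate 3) lower, with 26 without DMSO replicate 2. Beside these stood 33.9%, 34.9% and 33.8% of all genes called, in the same order. These counts describe the lists, and a run at an annotated start is not evidence that the messenger begins there in these cells.

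Median GC content and length differed between the factors that rose and those that fell, with overlapping GC ranges of 38.4% to 64.8% and 40.6% to 52.8%. The 16 factors that rose had a median GC content of 43.4% over their longest transcript and a median principal transcript of 2953 bases, and the 7 that fell 51.1% and 1458 bases. With offsets for GC content and the length of the longest transcript, 13 factors rose and 7 fell, beside 38.9% of all genes called. They were not the same ones: PABPC4, EIF3B, EIF3A, EEF1B2, EIF3K and MCTS1 no longer passed, and EIF2D, EIF3H and EIF5A2 passed as lower. EIF2S1 was 0.18, adjusted p 0.0294, and EIF1B was 0.26, adjusted p 0.00659. EIF5B was then 0.99, adjusted p 9.13e-06, EIF5 0.52, adjusted p 0.000156 and GSPT1 0.42, adjusted p 0.00109 (edgeR). The longest transcript may be longer than the form these cells use, and its effect on the offset values was not tested.

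Levels per length give an order within the set. CPM was divided by the length in kilobases of the principal coding transcript of GENCODE release 29, which may be longer than the form these cells use. EEF1A1 led with 915 CPM per kb over the 8 libraries, followed by EEF2 (544), EIF5A (524) and EEF1B2 (519.5), whose ranges over libraries overlapped, and then PABPC1 (380.3), EIF3E (278) and EIF1 (253). Within 1 complex these values differed: the 12 eIF3 genes of the set ran from 26.8 (EIF3F) to 278 (EIF3E) CPM per kb, a 10.4-fold range. The eIF2 genes ran over 1.68-fold and the eIF2B genes over 4.99-fold. These ranges depend on the length used as divisor, 7540 bases for EIF3F and 1543 for EIF3E, whose mean levels over the 8 libraries were 202 and 429 CPM. Whether subunits of 1 complex differ in level was not tested. The eIF2B genes had a median of 23.4 CPM per kb beside 68.5 for eIF2. Of each paralog pair 1 gene dominated, with ratios per length of 116 for EIF5A over EIF5A2, 5.47 for EEF1A1 over EEF1A2, 4.45 for PABPC1 over PABPC4 and 2.76 for EIF1 over EIF1B.

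**Figure D3:**
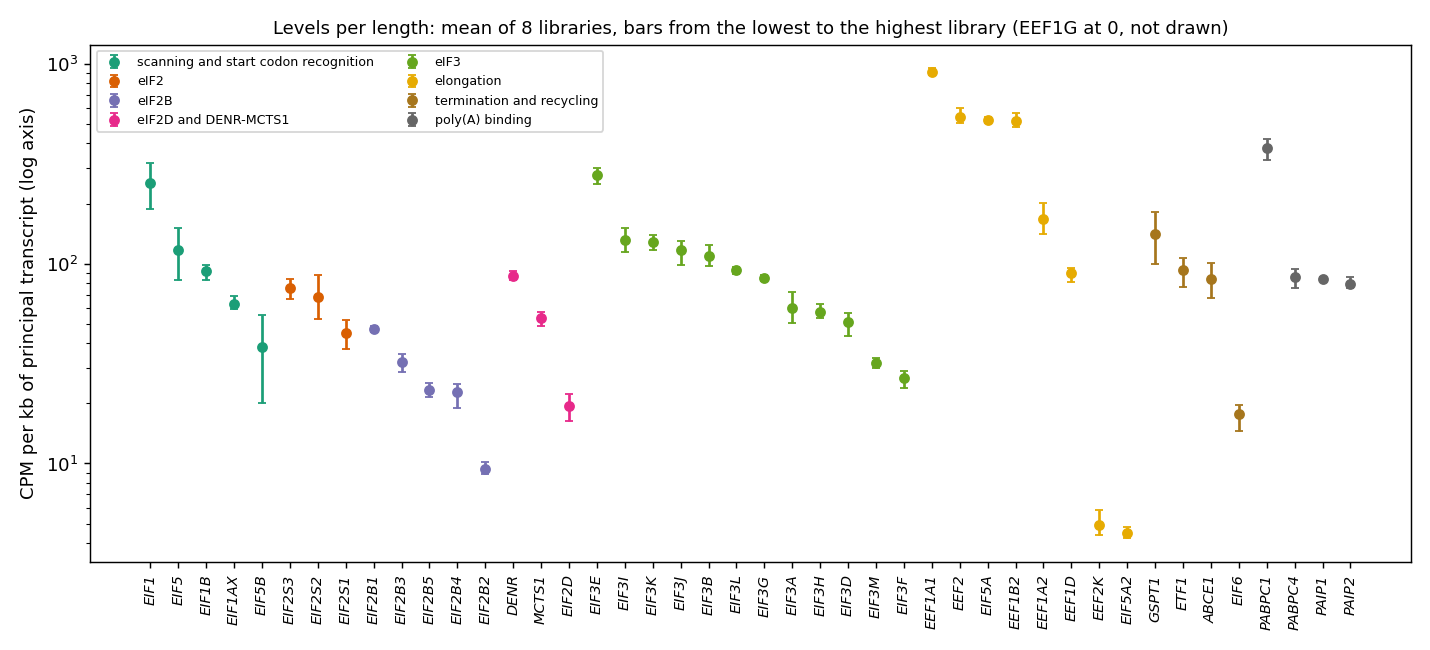
CPM per kb of principal transcript (vertical log axis) for the 44 detected factors (horizontal axis), coloured by role; points are means of 8 libraries and bars run from the lowest to the highest library. EEF1A1 stands highest at 915 and EIF5A2 lowest at 4.50, and the bar of EIF5B is among the widest.

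Replicate 1 was compared with the other pairs gene by gene. For 22 of the 23 factors that passed, the library labelled CR31B replicate 1 lay on the DMSO side of the midpoint between the group means of replicates 2 to 4, and for 22 the library labelled DMSO replicate 1 lay on the CR31B side. The exceptions were EEF1A2 in the library labelled CR31B, at 373 CPM, and MCTS1 in the library labelled DMSO, at 53.7 CPM. A treatment by layout interaction passed in 25 of 44 factors (edgeR quasi-likelihood test, Benjamini-Hochberg), beside 42.5% of 16518 genes. Only 1 library per group was paired-end, so this test takes its spread from replicates 2 to 4, and replicate 1 and its sequencing layout cannot be told apart.

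**Figure D4:**
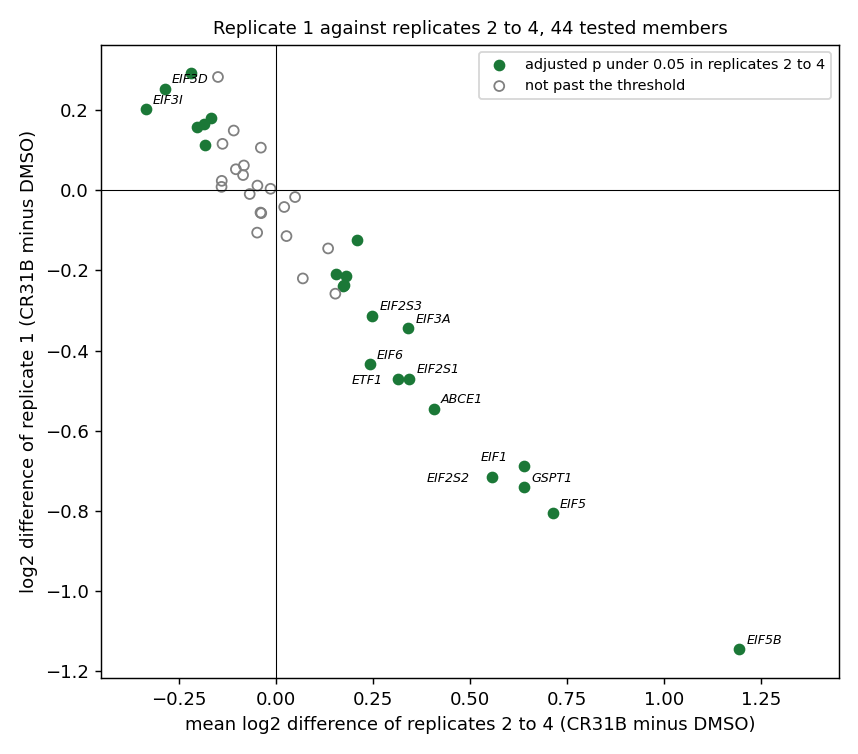
Mean log2 difference of replicates 2 to 4 (horizontal axis) against the log2 difference of replicate 1 (vertical axis), both CR31B minus DMSO in log2 CPM, for the 44 tested factors; filled points passed an adjusted p of 0.05 in replicates 2 to 4. All 23 filled points lie at the upper left or lower right, from EIF5B (replicate 1 difference -1.15) to EIF3I (0.20).

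Other genes of the pathway, from a list that does not overlap the 45, were read in the same fit. Of 30 translation factors and their helpers outside the set, 8 rose (26.7%, beside 23.8% of all genes) and 5 fell (16.7%, beside 17.6%), with a median of -0.09. The share called, 43.3%, is near the 41.3% of all genes. With upper quartile scaling 6 rose and 16 fell, beside 45% of all genes called, 40% of those calls higher. With the replicate block 9 rose and 10 fell, beside 51.1% of all genes called (28.1% higher and 23.1% lower). PELO, which rescues stalled ribosomes before ABCE1 splits them, had a log2 fold change of 0.78 ± 0.0576 (SE, edgeR adjusted p 4.81e-06). TRMT112, a cofactor of the enzyme that methylates eRF1, had -0.42 ± 0.0600 (SE, edgeR adjusted p 0.000335). PDCD4, which holds eIF4A in an inactive state, had 0.79 ± 0.125 (SE, edgeR adjusted p 0.000613), and EIF1AD, an eIF1A-like protein, 0.32 ± 0.0509 (SE, edgeR adjusted p 0.000672). PELO, TRMT112, PDCD4 and EIF1AD differed in replicate 1 by -0.80, 0.40, -0.70 and -0.38.

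Of 10 genes for the eIF2 kinases and the phosphatase that acts on eIF2, 4 rose (40%, beside 23.8% of all genes), 2 fell (20%, beside 17.6%) and 4 did not pass. Their median was 0.000757. The catalytic subunits PPP1CB and PPP1CC had 0.72 ± 0.0462 (SE, edgeR adjusted p 2.39e-06) and 0.43 ± 0.0495 (SE, edgeR adjusted p 7.10e-05). The 2 regulatory subunits went opposite ways, with 0.43 ± 0.0485 (SE, edgeR adjusted p 6.89e-05) for PPP1R15B, the constitutive form, and -0.47 ± 0.0725 (SE, edgeR adjusted p 0.000503) for PPP1R15A, the stress-induced form (edgeR). In replicate 1 these 4 genes had -0.79, -0.40, -0.42 and 0.54 in the same order.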

How the data were processed

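The authors deposited 1 table of raw read counts per Ensembl gene for 8 libraries. The submitters' processing notes name FastQC 0.11.7, STAR 2.7.2b, edgeR 3.36.0, limma 3.50.3 and GRCh38. The counting program, its strand setting and the annotation are not given in the sources used here. Per the labels' protocols, 250 ng of RNA was amplified over 15 PCR cycles with a small RNA library kit, while polyA RNA is listed as the molecule. Identifiers were matched to GENCODE release 29. In 1 column header (CR31B replicate 4) the cell line is written without its initial letter.

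Counts were tested with edgeR 4.0.16 (filterByExpr, TMM, quasi-likelihood test, Benjamini-Hochberg over all genes tested, threshold 0.05), for replicates 2 to 4 by group and for all 8 libraries with sequencing layout as a covariate. CPM values are scaled by TMM. DESeq2 1.42.0, limma 3.58.1 voom, other scalings, filters, offsets, the replicate block and left-out libraries were alternatives. The biological coefficient of variation was 7.46% in replicates 2 to 4 and 16.3% in all 8. On counts simulated for replicates 2 to 4 (16696 genes, 200 changed), the test recovered 72.0% of changes of log2 size 0.5 and 90.0% of size 1, with 7 false calls of 169. The simulation gave all genes the same dispersion, and in the data 41.3% of genes passed. Its rates therefore need not hold for the data. The deviations of same-numbered libraries correlated at 0.206, 0.384 and 0.157 (replicates 2, 3 and 4, across genes). Those of unlike numbers correlated at -0.303 to 0.0888. The main test of replicates 2 to 4 did not use the pairing by number. The fit with replicate number as a block, an alternative, called 30 factors in place of 23. Members and gene lists were chosen with earlier results of these data known. The summed level of 1 marker list and 1 marker gene are not reported here. Given in full were up to 8 factors per direction by log2 fold change, both genes of 4 paralog pairs and the factor with the smallest p in each role, and of genes outside the set up to 4 per list by smallest p.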

Additional observations from a re-analysis of the deposited data

Results flagged for a closer look

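In 11 of 44 tests of 1 gene in the 4 libraries of 1 label, the library of replicate 1 stood apart from the other 3, by a gap that took more than 0.829 of the whole range (Dixon's 95% value for 4 samples). The test marks about 1 in 20 by chance, or 2.2 of 44, but the 22 factors tested were picked in part for their difference in replicates 2 to 4 and the tests share libraries, so that rate does not hold for them. Among the libraries labelled CR31B the gap took 0.876 of the range for EIF5B, 0.883 for EIF5, 0.891 for EIF1, 0.845 for EIF3I and 0.912 for MCTS1. Among those labelled DMSO it took 0.845 for EIF5B, 0.869 for EIF5, 0.835 for EIF1, 0.857 for EIF2S2, 0.884 for ABCE1 and 0.967 for MCTS1. The MCTS1 value rests on DMSO replicates 2 to 4, whose SD of 0.0578 CPM lies below counting error.

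The CR31B minus DMSO difference of replicate 1, taken as labelled, differed from that of replicates 2 to 4 by the interaction of treatment with sequencing layout, in 19 of the 22 factors given in full (edgeR, adjusted p 4.02e-06 for EIF5B to 0.0267 for MCTS1). These factors were picked in part by values of replicates 2 to 4 that enter the test. Over the 44 tested factors 25 passed, beside 42.5% of all genes. A negative value means that the log2 fold change was lower in replicate 1. Of the initiation factors that rose in replicates 2 to 4, the interaction was -2.33 for EIF5B, -1.52 for EIF5, -1.33 for EIF1, -0.36 for EIF1B, -1.27 for EIF2S2, -0.81 for EIF2S1, -0.40 for EIF2B3 and -0.69 for EIF3A. For GSPT1 and ABCE1 of termination and recycling it was -1.38 and -0.95, for EEF1A2 -0.33 and for PABPC4 -0.41. Of the factors that fell it was 0.54 for EIF3I, 0.54 for EIF3D, 0.36 for EIF3K, 0.35 for EIF3F, 0.51 for PABPC1, 0.30 for MCTS1 and 0.35 for EEF1B2. EEF1A1, EIF5A and EIF5A2 did not pass this test.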

How the results depend on the processing

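In replicates 2 to 4 the count of factors that fell moved from 7 to 12 with the replicate block, 16 with the block and GC and length offsets, 18 under upper quartile and 16 under total count scaling, and 11 with a filter of 1 CPM in 3 libraries, while the total stayed between 20 and 33. Of all genes tested, 51.1%, 51%, 45%, 44.2% and 52.7% were called in the same order, beside 41.3% in the main fit. The higher share of those calls was 54.9%, 46.1%, 40%, 43.1% and 51%, beside 57.5% in the main fit. The block changed the calls of 7 factors named in the text and ended none. The median over the factors was 0.00486 on the log2 scale and became -0.0349 with the offsets, -0.0341 with offsets and block, -0.00732 with RLE scaling, -0.0906 with upper quartile, -0.0732 with total counts, -0.00714 without a filter, -0.0313 with the 1 CPM filter and -0.00729 with DESeq2. Upper quartile scaling moved the median of all genes from -0.00698 to -0.10, and the cause of the other shifts was not tested. Of the factors that passed in replicates 2 to 4, 0 changed sign under any alternative run on those replicates. Of the others, EIF1AX, EIF2B1, EIF3M, EEF2K and EIF5A changed sign with the offsets, EIF1AX, EIF3G, EIF3M and PAIP1 under upper quartile and total count scaling, EIF3G and EIF3M with the 1 CPM filter, and EIF2B2, EIF3G and PAIP2 when 1 library was left out. EIF5A moved to 0.0568 with the offsets (adjusted p 0.521) and 0.0564 with offsets and block (adjusted p 0.210, edgeR). Leaving out 1 library at a time gave 18 to 24 factors in replicates 2 to 4 (12 to 16 higher, 6 to 8 lower, median 0.000194 to 0.0289), 22 to 28 for the interaction, and 0 to 24 in all 8 libraries (0 to 16 higher, 0 to 8 lower). In all 8 libraries every other alternative gave 0 factors, among them DESeq2, limma voom, the replicate block and no layout term. The lowest level of a tested factor in any library was 18.8 CPM (EIF6).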

Other observations

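Taken over each library, the 45 factors held between 1.63% and 1.67% of all counts, in both groups and in replicate 1 as in the others, while single members differed by up to 2.28-fold between groups. Several factors have processed copies elsewhere in the genome that could share reads with them. The 39 annotated copies of EEF1A1 held counts equal to 1.70% of the parent gene over the 8 libraries, and the 14 of PABPC1 held 0.296%. The values were 2.46% for EIF3F, 2.40% for EIF2S2, 1.24% for EEF1B2, 1.15% for EIF5A and 0.0873% for EIF1. How many reads of the parents could be placed on the copies was not tested.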
